A study of Homo sapiens with 4 samples.

Results

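Translation initiation and elongation factors were taken as the genes whose symbol begins with EIF and a number from 1 to 6, or with EEF and 1 or 2, and whose value was above 0 in at least 2 of 4 libraries. Of 69 matching symbols among 25066 genes, 67 passed and form the group described here, and the remaining 2, EIF1AY and EIF4E1B, were listed at 0 in every library. The 67 members were part of the 16945 genes tested. By role, 60 of them encode translation factors or their direct regulators. Another 4, EIF2C1 to EIF2C4, are older names of the Argonaute genes AGO1 to AGO4, which act in RNA silencing, and 3 are pseudogene rows, EEF1AL7, EEF1DP3 and EIF3IP1. The member nearest the rule's limit was EEF1DP3, with 4 reads and a listed 0 in the control libraries and 2 and 0 reads in the others.

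RNA was sequenced from NUDUL1, a human diffuse large B cell lymphoma line of the germinal center B cell type. A single-cell clone with doxycycline-inducible Cas9 had been transduced with Tbxa2r, the thromboxane A2 receptor, which signals through Gα13, the protein that GNA13 encodes. Cells carried either a control sgRNA or a sgRNA against GNA13, 1 sgRNA per genotype, and all of them were exposed for 24 h to U46619, a stable thromboxane A2 mimetic, at 10 nM according to the labels. There were 2 libraries per genotype and no untreated cells, so the comparison asks how the genotypes differ under receptor stimulation. The libraries of a genotype are described only as duplicates, and p-values therefore measure the spread between these samples, which may be technical.

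Mapped reads numbered 29209544 to 31537955 per library, and each value is the log2 of normalized reads of a gene. The log2 value of GNA13 itself was 12.46 and 12.45 under the control label against 13.10 and 13.11 under the GNA13-deficient label, a difference of 0.65 ± 0.05 (SE; limma, adjusted p = 0.00214). Its mRNA was thus not lower under the deficient label, and the genotypes are called by their labels throughout. All 6 B cell markers examined were expressed, at log2 values between 10.21 and 14.33. Of 11 markers of other cell types, 3 (CD3D, CD3E and KRT8) were at 0 in all libraries, and the 11 together held 256 and 266 reads in the control libraries and 140 and 142 reads in the others, whose part in the results was not tested.

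Eukaryotic translation begins when the small ribosomal subunit, carrying eIF2 with the initiator tRNA, eIF3, eIF1, eIF1A and eIF5, is brought to the mRNA cap by eIF4F and scans to a start codon. Elongation then depends on eEF1A, which delivers aminoacyl-tRNA, and on eEF2, which moves the ribosome along. The mTORC1 kinase acts on this machinery through the eIF4E-binding proteins and through mRNAs that open with a 5′ terminal oligopyrimidine (TOP) tract, and kinases that phosphorylate eIF2 lower initiation under stress.

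Transcript starts are shown first because the TOP tract separates the members that carry it from the others by sequence alone. RefSeq promoter windows (GRCh38.p14, 250 bases before to 50 after the start) were matched for 52 of the 67 members. The first 20 bases of the transcript are printed below, with an opening run of pyrimidines that begins with C at the first base in capitals. The first 4 genes belong to a list of known TOP mRNAs, the next 3 do not but also open with a run of 5 or more, and the last 4 are members with higher values or paralogues of the former.
EEF1A1: CTTTTTCgcaacgggtttgc (chr6:73521013-73521032, minus strand)
EEF2: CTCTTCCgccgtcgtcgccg (chr19:3985444-3985463, minus strand)
EIF3F: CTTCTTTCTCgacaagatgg (chr11:7987337-7987356, plus strand)
EIF4B: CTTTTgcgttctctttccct (chr12:53006456-53006475, plus strand)
EIF4A2: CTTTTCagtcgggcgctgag (chr3:186783577-186783596, plus strand)
EIF2A: CTCTTTCCgggacaacatgg (chr3:150546787-150546806, plus strand)
EIF2S3: CTCTTTTggcaacatggcgg (chrX:24054956-24054975, plus strand)
EIF1AX: gccatttgctgccgccgagc (chrX:20141819-20141838, minus strand)
EIF4A1: CCTagtttctaaggatcatg (chr17:7572825-7572844, plus strand)
EIF4EBP2: gcttccggtcgtcgtcgtcg (chr10:70404145-70404164, plus strand)
EIF5A: accacactagcgcgctagaa (chr17:7306999-7307018, plus strand)

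A run of 5 or more pyrimidines from a C at the first base stood in 10 of the 52 matched members (19.2%) and in 5.13% of the 11680 tested genes with a promoter window. It stood in 4 of the 6 TOP-listed members with a window, and the windows of EEF1B2 and EEF1G opened with A. The search for this run was chosen after the values had been seen, so the values beside it are a description. Of the 10 members with the run, 8 had lower mean values in the libraries labelled GNA13-deficient and 2, EIF2S3 and EIF3K, had higher ones. The median log2 difference of the 10 was -0.25. The 6 of them that are not TOP-listed had 4 lower and 2 higher values, with a median of -0.17. Of the 42 members without the run, 14 had lower values and 28 higher, with a median of 0.15. The E-box CACGTG, a palindrome that MYC and other factors bind, stood in 13 of 52 member windows (25.0%) against 9.85% of all windows. Members with an E-box were among those that rose, fell and passed no test, as these 3 stretches show, with the motif in capitals.
EIF4A3: agttccctttCACGTGacgaagagtg (chr17:80147234-80147259, minus strand)
EIF3F: agctctagctCACGTGgtgtatattc (chr11:7987259-7987284, plus strand)
EIF4E: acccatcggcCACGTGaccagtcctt (chr4:98929343-98929368, minus strand)
The amino acid response motif TGATGNAAN, searched on both strands, stood in 0 of the 52 windows and in 1.95% of all windows.

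Across the 67 members, 11 rose and 13 fell in the libraries labelled GNA13-deficient (limma, adjusted p under 0.05 over all 16945 genes), which is 35.8% of them. Of all genes tested, 29.7% were called in this comparison, 13.1% as higher and 16.6% as lower, so the share of called members lay near that of genes in general. The genotypes did not overlap for 28 members with higher and 28 with lower values, beside 31.3% and 34.0% of all genes (65.3% together). The median log2 difference of the members was 0.11, with 35 higher and 32 lower, and that of all genes was -0.02. It was -0.02 after quantile normalization, where the median of all genes was 0.07. The genes that rose were EIF5A2, EIF4EBP1, EIF1AX, EIF4EBP2, EIF4A3, EIF2B2, EIF5A, EIF2S3, EEF1E1, EIF1AD and EIF2S2. The genes that fell were EEF1A2, EIF4A2, EEF1AL7, EIF2C4, EIF2AK4, EIF3F, EIF3H, EIF4G3, EIF3L, EIF3B, EIF2B5, EIF2AK3 and EIF2A. With any 1 of the 4 libraries left out, in either genotype, the calls did not hold. Each of the 24 called members kept its direction, which was fixed in advance, because none of them overlapped between genotypes. Without the filter on low values 4 of the 24 calls held (EEF1A2, EIF1AX, EIF2A and EIF2C4), and without a mean-variance trend 3 of them did (EEF1A2, EIF1AX and EIF2C4).

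**Figure D1:**
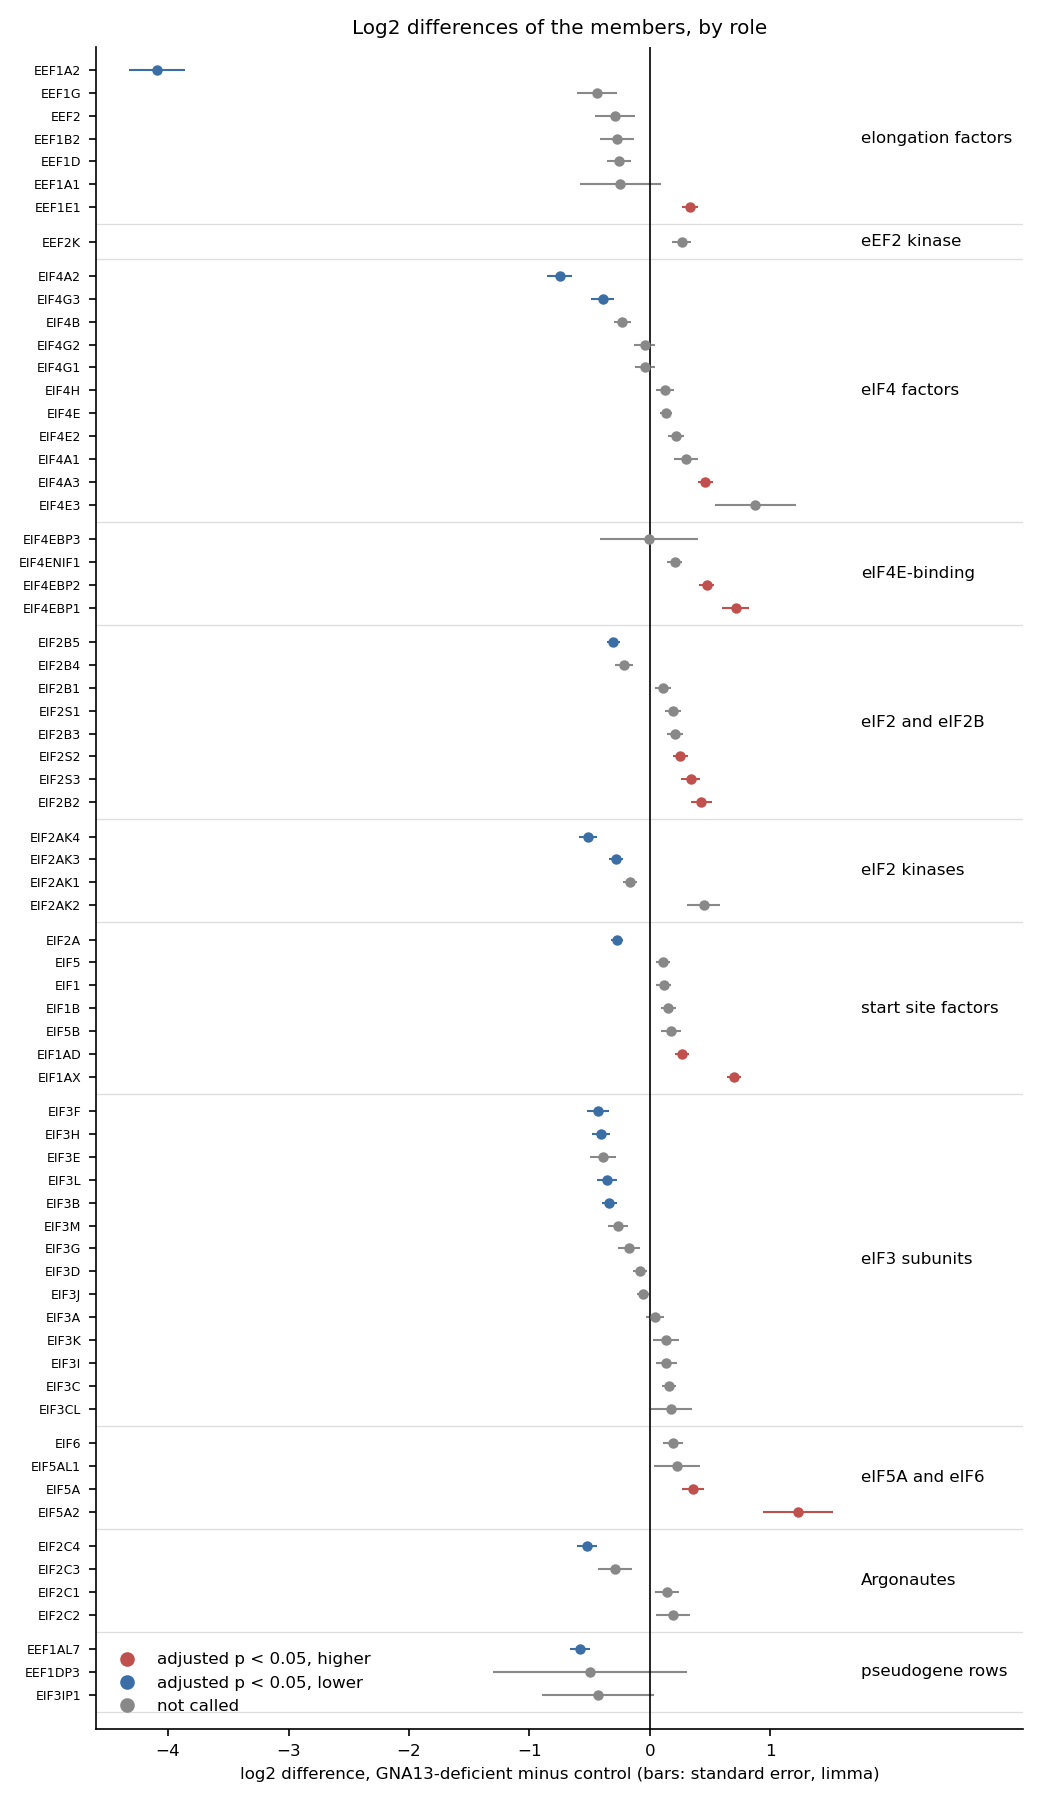
Log2 differences (libraries labelled GNA13-deficient minus control, horizontal axis) of the 67 members, grouped by role, with bars of 1 standard error from limma. Red marks the 11 that rose, blue the 13 that fell and grey those that passed no test. EEF1A2 stands alone at -4.09, and the other members lie between -0.75 and 1.23.

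EEF1A2, which encodes the tissue-restricted second form of eEF1A and lies at chr20:62119366-62130592 (GRCh37, minus strand), had by far the lowest ratio of the group. Its log2 values were 7.93 and 8.20 in the control libraries and 3.85 and 4.11 in those labelled GNA13-deficient, from 240, 299, 14 and 16 reads. Both values of one genotype lay far above both of the other. The difference was -4.09 ± 0.24 (SE; limma, adjusted p = 0.00134), that is 17.05-fold lower. All 11 alternatives with 2 libraries per genotype in which the gene was tested called it. Its size depended on the setting, at -3.43 with a pseudocount of 10 and -3.77 after quantile normalization. Among all 16945 genes tested, EEF1A2 ranked 110 from the lowest difference. Among the 8780 genes with a mean control log2 value of 8 or more, 6 including EEF1A2 had a difference at or below this one. That limit is set on the genotype where EEF1A2 was higher, at a mean of 8.07, so the count of 6 describes well-expressed genes only.

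EEF1A1, the ubiquitous form and the gene with the highest mean level of all 16945, showed no such difference. Its log2 values were 19.54 and 19.80 in the control libraries and 19.33 and 19.53 in the others, with a difference of -0.24 ± 0.33 (limma, adjusted p = 0.629). The genotypes did not overlap, but control replicate 1 and GNA13-deficient replicate 2 were nearly equal. EEF1A1 alone took 2.57% and 2.95% of mapped reads in the control libraries and 2.13% and 2.37% in the others. Per kilobase of canonical transcript its level was 1579 and 1568 times that of EEF1A2 in the control libraries, and 23121 and 22179 times in the others. The pseudogene row EEF1AL7, whose current symbol is EEF1A1P9, fell from log2 values of 12.58 and 12.46 to 12.02 and 11.85, by 0.58 (limma, adjusted p = 0.00831). It is a near-identical copy of EEF1A1, and how reads were divided between them is not given in the sources used here.

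The remaining elongation factors differed far less than EEF1A2. EEF2, the translocase, had log2 values of 17.73 and 17.84 in the control libraries and 17.48 and 17.51 in the others, a difference of -0.29 ± 0.16 (limma, adjusted p = 0.260). EEF2K, the kinase that inhibits eEF2, had 10.30 and 10.28 against 10.64 and 10.46, a difference of 0.26 ± 0.08 (limma, adjusted p = 0.0643). Neither gene's genotypes overlapped, and neither passed the test. The eEF1B subunits EEF1B2, EEF1D and EEF1G, which recharge eEF1A with GTP, had differences of -0.27, -0.26 and -0.44, none of them called. EEF1E1, a scaffold of the aminoacyl-tRNA synthetase complex, was the only one of the 7 elongation genes to rise, by a log2 difference of 0.34 (limma, adjusted p = 0.0209). Of the 7, 1 rose, 1 fell and 5 passed no test, beside 29.7% of all genes called, with a median of -0.27.

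The members on the list of known TOP mRNAs used here were EEF1A1, EEF1A2, EEF1B2, EEF1D, EEF1G, EEF2, EIF3E, EIF3F, EIF3H and EIF4B. All 10 had lower mean values in the libraries labelled GNA13-deficient, with no overlap between genotypes for any, beside 34.0% of all genes not overlapping in that direction. Only 3 of the 10 were called (EEF1A2, EIF3F and EIF3H), beside 16.6% of all genes. Their median log2 difference was -0.34, and -0.29 without EEF1A2, against 0.15 for the other 50 translation genes, of which 33 had higher values. These 50 are genes outside the list, not genes shown to lack a TOP tract. Of them, 6 open with the pyrimidine run described above, 4 with lower and 2 with higher values. Relative to the mean of the control libraries, the median of the TOP-listed members was -0.11 and 0.11 in control replicates 1 and 2 and -0.42 and -0.28 in GNA13-deficient replicates 1 and 2. The reference fixes the control values on either side of 0, and both GNA13-deficient values lay below the lower of them.

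The direction of the TOP-listed members was the same under 3 other scalings, apart from EEF1A1, whose difference was 0 after quantile normalization. That 0 is fixed by the method, which gives the gene of highest level the same value in every library. Their median was -0.39 on reads scaled to each library's total, -0.47 after quantile normalization and -0.13 after centring each library on its median. That centring moved the median of all genes from -0.02 to 0.18. Relative to the median of all genes the TOP-listed members stood at -0.32 as deposited and -0.54 after quantile normalization. The other 50 translation genes stood at 0.17 and 0.003. Centring and scaling to the total shift all genes of a library by nearly the same amount. The value of -0.32 under each of them therefore follows from the deposited values and adds no further check. Only EEF1A2 of the 3 calls held after centring.

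**Figure D2:**
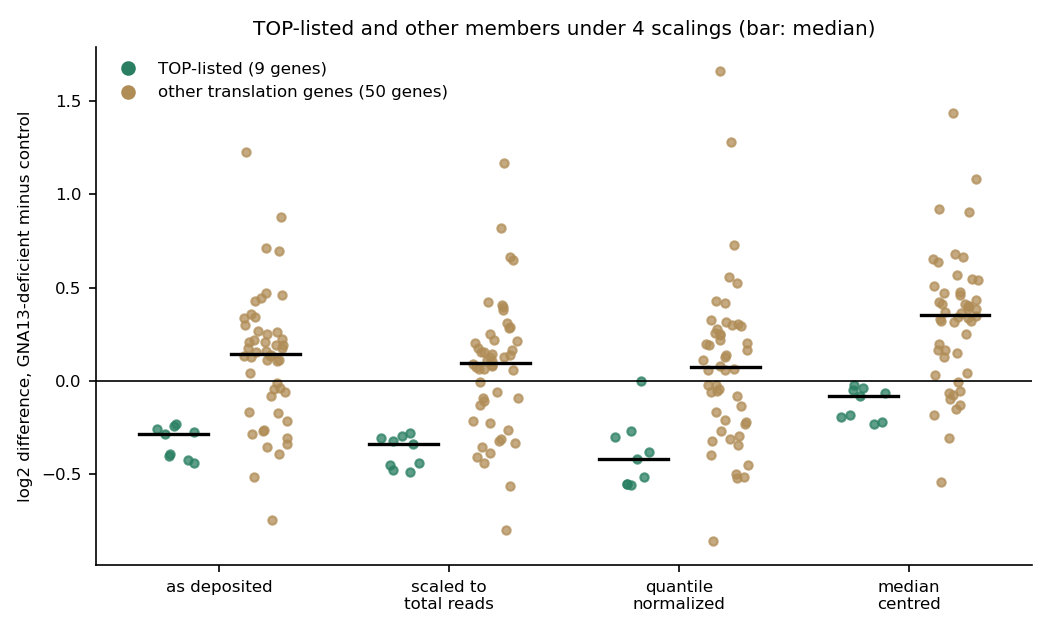
Log2 differences (vertical axis, libraries labelled GNA13-deficient minus control) of 9 TOP-listed members without EEF1A2 (green) and of the 50 other translation genes (brown) under 4 scalings, each point 1 gene and each bar a median. The green points lie at or below 0 in each scaling, and the median of the brown points lies above 0 in each. After quantile normalization the brown median was 0.07, as was the median of all genes tested. The green point at 0 after quantile normalization is EEF1A1, whose 0 is fixed by that method.

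The eIF3 complex, the scaffold of the scanning small subunit, was represented by 14 members. None of them rose and 4 fell, EIF3F by 0.43, EIF3H by 0.40, EIF3L by 0.36 and EIF3B by 0.34, while 10 passed no test, beside 13.1% of all genes called higher and 16.6% lower. EIF3F, at chr11:7991798-8023409 (GRCh37), had log2 values of 13.35 and 13.56 in the control libraries and 12.98 and 13.07 in the others (difference -0.43 ± 0.09, 1.34-fold lower; limma, adjusted p = 0.0256), with both control values above both others. EIF3E, with a difference of -0.39, fell just short (limma, adjusted p = 0.0532). The other subunits lay between -0.26 for EIF3M and 0.18 for EIF3CL, and among them EIF3A, the largest subunit, was at 0.04. The median of the 14 was -0.13 as deposited, with 9 lower, and 0.08 with 6 lower after centring, under which none of the 4 calls held. After quantile normalization it was -0.24, with 12 lower. Relative to all genes the median was -0.10 as deposited, which centring cannot change, and -0.31 after quantile normalization. EIF3C and EIF3CL are near-identical genes on chromosome 16, so the division of reads between them is uncertain.

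The eIF4F cap-binding complex joins eIF4E, the scaffold eIF4G and the RNA helicase eIF4A. Its helicase genes went different ways. EIF4A2, at chr3:186500994-186507686 (GRCh37), fell from log2 values of 13.09 and 12.85 in the control libraries to 12.29 and 12.15 in the others (difference -0.75 ± 0.10, 1.68-fold lower; limma, adjusted p = 0.00782). EIF4A1, the more abundant paralogue, had 15.22 and 15.33 against 15.51 and 15.64, a difference of 0.30 ± 0.10 that did not pass the test (limma, adjusted p = 0.0788). Neither gene's genotypes overlapped. Within a library, EIF4A1 exceeded EIF4A2 by 4.68 and 5.97 times per kilobase of canonical transcript in the control libraries and by 9.94 and 12.05 times in the others. With coding length in place of transcript length the ratios were 4.37 and 5.58 against 9.29 and 11.3. EIF4A3, a related helicase of the exon junction complex, rose from 13.21 and 13.27 to 13.66 and 13.73 (difference 0.46 ± 0.06; limma, adjusted p = 0.00758), with no overlap.

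EIF4E, the cap-binding protein, had log2 values of 11.77 and 11.73 in the control libraries and 11.87 and 11.89 in the others, a difference of 0.13 ± 0.05 that passed no test (limma, adjusted p = 0.115). EIF4G1, the main scaffold, had 14.40 and 14.40 against 14.43 and 14.28, with overlapping genotypes and a difference of -0.04 ± 0.08 (limma, adjusted p = 0.745). EIF4G3, a second scaffold, fell by 0.39 (limma, adjusted p = 0.0368), a call that did not hold after centring. EIF4B, which stimulates the helicase, was at -0.23, and EIF4H at 0.13, EIF4E2 at 0.22, EIF4G2 at -0.04 and EIF4E3, from 45 to 119 reads, at 0.88, none of them called. Of the 11 genes, EIF4A3 included, 1 rose, 2 fell and 8 passed no test, beside 29.7% of all genes called. Their median was 0.13, and -0.06 after quantile normalization. Without EIF4A3, 0 of the remaining 10 rose and 2 fell, beside 13.1% and 16.6% of all genes. The median of these 10 was 0.04, and -0.07 after quantile normalization.

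The eIF4E-binding proteins hold eIF4E away from eIF4G until mTORC1 phosphorylates them. Both of the abundant ones rose. EIF4EBP1 had log2 values of 9.81 and 9.88 in the control libraries and 10.41 and 10.71 in the others (difference 0.71 ± 0.11, 1.64-fold higher; limma, adjusted p = 0.0111). EIF4EBP2 had 13.17 and 13.22 against 13.71 and 13.62 (difference 0.47 ± 0.06, 1.39-fold higher; limma, adjusted p = 0.00724). Neither overlapped between genotypes. Set against EIF4E within the same library, the log2 value of EIF4EBP2 exceeded that of EIF4E by 1.40 and 1.49 in the control libraries and by 1.84 and 1.73 in the others. EIF4EBP1 lay below EIF4E by -1.96 and -1.85 in the control libraries and by -1.46 and -1.19 in the others, so both stood closer to or further above EIF4E under the deficient label. EIF4ENIF1, which carries eIF4E into the nucleus, was at 0.21 and EIF4EBP3, with 34 to 61 reads, at -0.01, and neither was called.

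**Figure D3:**
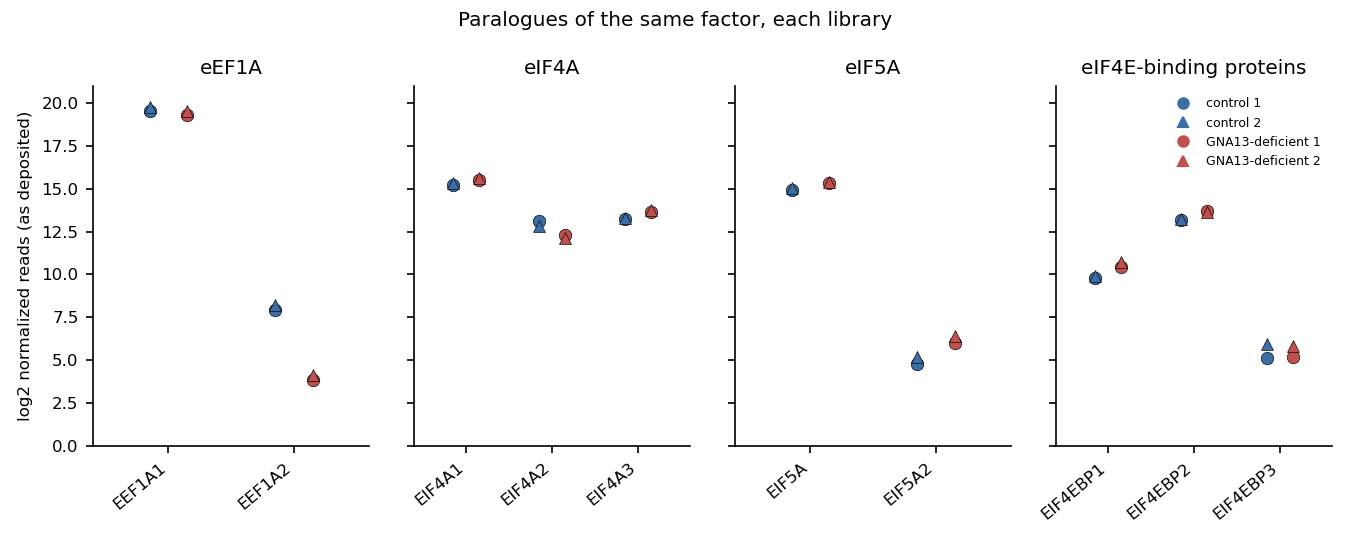
Log2 normalized reads (vertical axis) of paralogous members in each of the 4 libraries (blue for control, red for libraries labelled GNA13-deficient, circles for replicate 1 and triangles for replicate 2). The red points of EEF1A2 lie far below the blue ones, EIF4A2 is lower and EIF4A3 higher in red, and EIF5A2, EIF4EBP1 and EIF4EBP2 are higher in red.

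eIF2 binds the initiator tRNA, and eIF2B restores its GTP. All 3 eIF2 subunits had higher values and 2 rose, EIF2S3 (the γ subunit) by a log2 difference of 0.34 (limma, adjusted p = 0.0329) and EIF2S2 (β) by 0.25 (limma, adjusted p = 0.0374). After quantile normalization EIF2S2 was at 0.13 and not called (limma, adjusted p = 0.144). EIF2S1, the α subunit on which the stress kinases act, had 12.54 and 12.59 in the control libraries and 12.70 and 12.82 in the others, a difference of 0.19 ± 0.07 (limma, adjusted p = 0.0872), without overlap. The eIF2B subunits were split. EIF2B2 (β) rose from 10.26 and 10.36 to 10.63 and 10.84 (difference 0.43 ± 0.09; limma, adjusted p = 0.0252), with both values above both control values. EIF2B5 (ε), the catalytic subunit, fell by 0.30 (limma, adjusted p = 0.0163), a call that did not hold after centring. EIF2B1 and EIF2B3 were at 0.11 and 0.21 and EIF2B4 at -0.22, none called.

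Of the 4 kinases that phosphorylate eIF2α, none rose and 2 fell, beside 13.1% and 16.6% of all genes. EIF2AK4 (GCN2), which senses uncharged tRNA and lies at chr15:40226316-40327792 (GRCh37), went from log2 values of 10.63 and 10.48 to 10.00 and 10.07 (difference -0.52 ± 0.08, 1.43-fold lower; limma, adjusted p = 0.00956). Both control values lay above both others. EIF2AK3 (PERK), the kinase of the endoplasmic reticulum, fell by 0.28 (limma, adjusted p = 0.0209), which was -0.07 and not called after centring. EIF2AK1 (HRI) was at -0.17, and EIF2AK2 (PKR), the interferon-inducible kinase, at 0.45 ± 0.13 (limma, adjusted p = 0.0660), neither called. The direction of EIF2AK1 turned to 0.04 after centring.

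**Figure D4:**
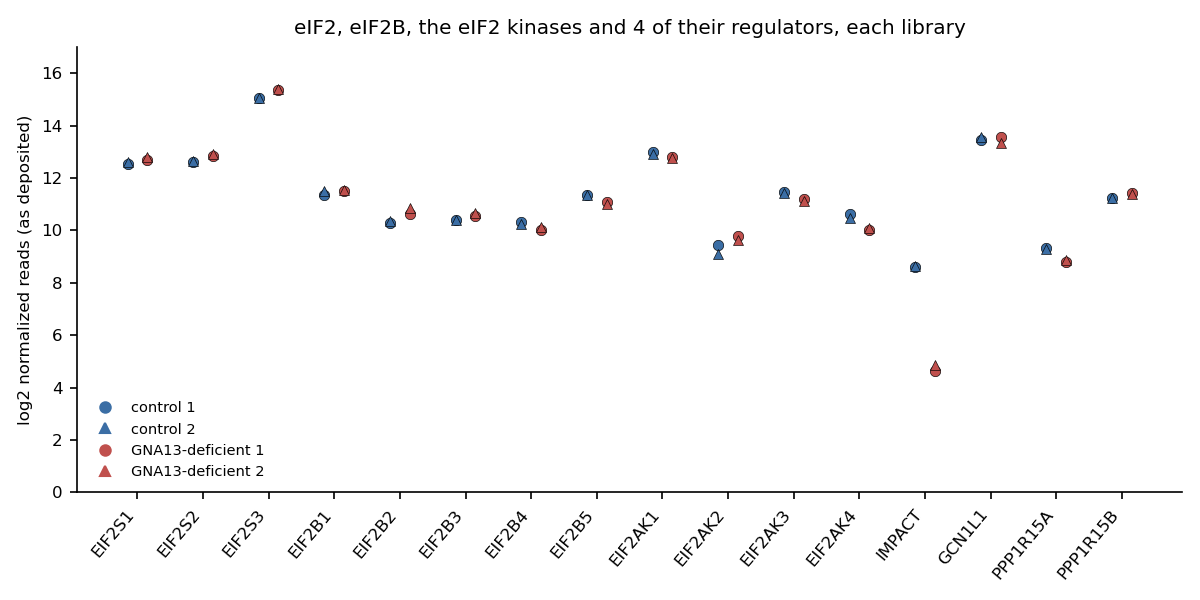
Log2 normalized reads (vertical axis) of the eIF2 and eIF2B subunits, the eIF2 kinases and 4 of their regulators in each library, with blue for control, red for libraries labelled GNA13-deficient, and circles and triangles for replicates 1 and 2. IMPACT shows the widest gap, from 8.58 and 8.62 to 4.62 and 4.86, and EIF2AK4 and PPP1R15A lie lower in red.

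Among the factors that set the start site, EIF1AX had the lowest adjusted p of the members that rose. It encodes eIF1A, which holds the scanning ribosome open, and lies at chrX:20142643-20159956 (GRCh37, minus strand). Its log2 values were 13.00 and 12.96 in the control libraries and 13.64 and 13.72 in the others (difference 0.70 ± 0.06, 1.62-fold higher; limma, adjusted p = 0.00257), with a wide gap between the genotypes, and all 12 alternatives with 2 libraries per genotype called it. EIF1AD, an eIF1A domain protein, rose by a log2 difference of 0.27 (limma, adjusted p = 0.0280), and was at 0.22 and not called on reads scaled to each library's total (limma, adjusted p = 0.0890). EIF2A, an alternative initiator tRNA carrier that is not part of eIF2, fell by 0.27 (limma, adjusted p = 0.0174), and this call did not hold after centring. EIF1, EIF1B, EIF5 and EIF5B had differences of 0.11, 0.15, 0.11 and 0.18 and passed no test. After quantile normalization EIF1 and EIF5 were at -0.05 and -0.05.

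eIF5A relieves ribosomes stalled on difficult sequences and carries the modified lysine hypusine. EIF5A had log2 values of 14.94 and 15.06 in the control libraries and 15.31 and 15.41 in the others (difference 0.36 ± 0.09; limma, adjusted p = 0.0412). Its rare paralogue EIF5A2, at chr3:170606207-170626433 (GRCh37, minus strand), had 4.78 and 5.19 against 6.01 and 6.41, from 27, 37, 63 and 79 reads (difference 1.23 ± 0.29, 2.34-fold higher; limma, adjusted p = 0.0353). Neither gene overlapped between genotypes, and the replicates of EIF5A2 lay further apart than those of EIF5A. Of all genes tested, 12.5% had a larger absolute difference than EIF5A2. EIF5AL1, a near-identical copy of EIF5A with which reads could be shared, was at 0.22, and EIF6, which keeps the ribosomal subunits apart, at 0.19, both without a call.

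**Figure D5:**
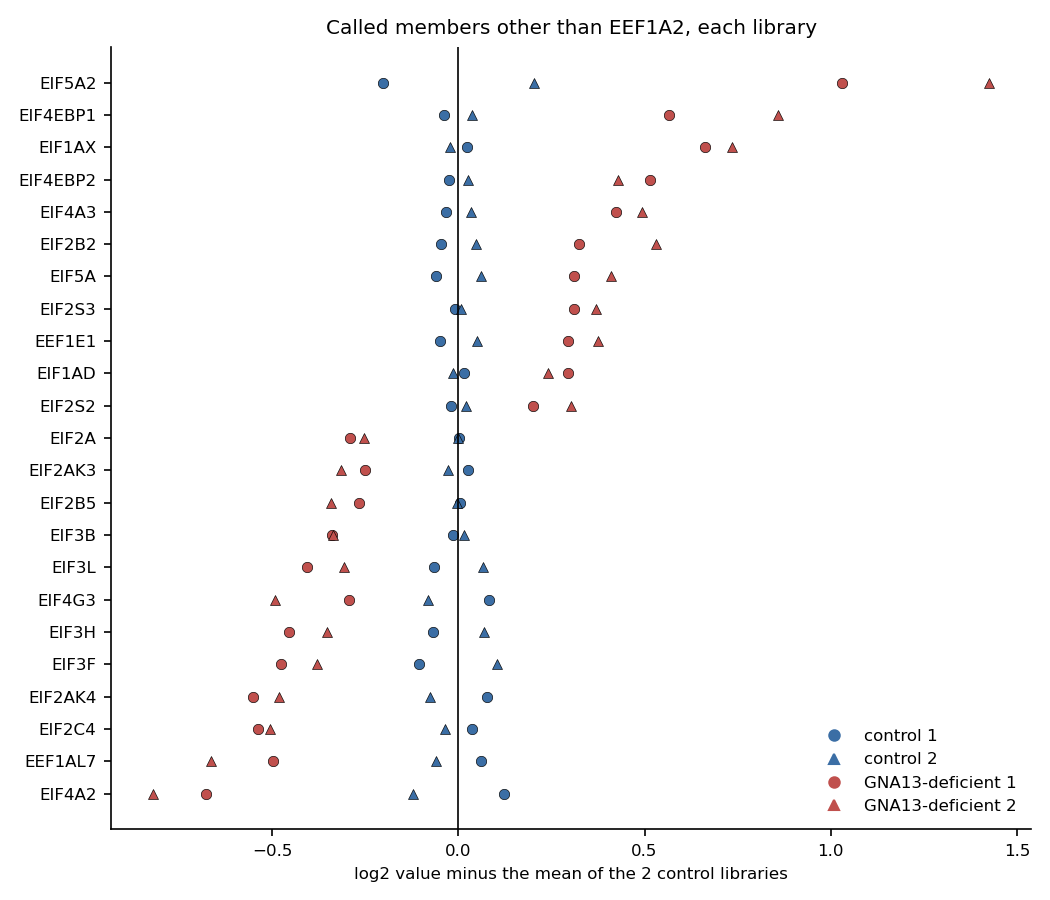
Log2 value of each called member other than EEF1A2 in each library, minus the mean of both control libraries (horizontal axis), with blue for control, red for libraries labelled GNA13-deficient, and circles and triangles for replicates 1 and 2. The red points of the 11 members that rose lie to the right of both blue ones, and those of the 12 that fell lie to the left.

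The Argonaute genes share only the old EIF2C symbol with the factors above. EIF2C4 (AGO4) fell from log2 values of 9.19 and 9.11 to 8.61 and 8.64 (difference -0.52 ± 0.08; limma, adjusted p = 0.0104), with no overlap, and all 12 alternatives with 2 libraries per genotype called it. EIF2C1, EIF2C2 and EIF2C3 had differences of 0.14, 0.19 and -0.29 and passed no test. The pseudogene rows EEF1DP3 and EIF3IP1 held at most 4 reads in any library and give no usable difference.

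Other genes of the pathway were read from a list of 48 symbols for poly(A)-binding proteins, eIF4E kinases, release factors, modification enzymes of eIF5A and eEF2, eIF2 regulators and mitochondrial factors, of which 45 were in the table and tested. Of these, 7 were called higher, PAIP2B included, and 3 lower, beside 13.1% and 16.6% of all genes, with a median log2 difference of -0.02. IMPACT, an inhibitor of GCN2 activation, fell from log2 values of 8.58 and 8.62 to 4.62 and 4.86, from 377, 400, 24 and 27 reads (difference -3.86 ± 0.18; limma, adjusted p = 0.00102). GCN1L1, an activator of GCN2, was at -0.05 and not called. NCBP2, the small subunit of the nuclear cap-binding complex, fell by 0.68 (limma, adjusted p = 0.00290), and PPP1R15A (GADD34), which directs a phosphatase to eIF2α, fell by 0.48 (limma, adjusted p = 0.0132), which was -0.27 and not called after centring (limma, adjusted p = 0.0684). The constitutive counterpart PPP1R15B was at 0.18, not called. EEFSEC, the elongation factor for selenocysteine, rose by a log2 difference of 0.50 (limma, adjusted p = 0.0145), and DOHH, an enzyme that completes hypusine on eIF5A, rose by 0.41 (limma, adjusted p = 0.0417), a call that did not hold on reads scaled to each library's total (limma, adjusted p = 0.0665). PAIP2B, an inhibitor of poly(A)-binding protein, was listed at 0 in both control libraries and had 5 and 4 reads in the others. It passed the filter only through the genotype where it was higher, so its call is not evidence of a change, and no fold is given at that depth.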

How the data were processed

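RNA from 4 samples (2 per genotype) was measured with a poly(A) stranded kit. Alignment to hg19 was made with STAR, and the authors deposited log2 values of normalized reads per gene; the submitters' processing notes also name HTSeq, and the normalization method is not given in the sources used here. Each value above 0, taken out of log2, was a whole number of reads divided by a constant per library (0.983 and 1.02 for control, 0.975 and 0.930 for GNA13-deficient). Of the values up to 400 reads, 100% were whole within 0.05 reads, or within a wider limit at higher reads that allows for rounding to 3 decimals. A first row holding the authors' total mapped reads gave depth only and entered no test. At these constants 3 reads correspond to log2 values of 1.56 to 1.69, which limits the rarest members, and counting error only is covered.

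Differences were computed with limma 3.58.1 in R 4.3.3 (mean-variance trend, genotype as the only term) on the deposited log2 values without a pseudocount, over 16945 genes above 0 in at least 2 libraries, with Benjamini-Hochberg adjustment and a threshold of 0.05. Gene positions and lengths came from GENCODE v44 models on GRCh37 (canonical transcripts), and promoter windows from RefSeq GRCh38.p14. The code was tested on simulated data. Members and lists were chosen with earlier results of these data known. Every member with a call is named, and values in every library are given for the 12 called members with the largest absolute difference, the largest called member of each role and 11 core genes. For other pathway genes, the 3 largest called in each direction are named. Alternatives were other filters, pseudocounts of 1 and 10, quantile normalization, median centring, a replicate block, no variance trend, a robust prior, voom weights, reads scaled to each library's total (chosen after the values were seen) and leaving out each library.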

Additional observations from a re-analysis of the deposited data

How the results depend on the processing

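No called member changed direction under any alternative. For leaving out 1 library this was fixed in advance, because the genotypes of these members did not overlap. Leaving out 1 library in turn (the lone sample was assumed to vary like the other genotype) gave 0 genes, 0 members higher and 0 lower called, and 0 pathway genes in either direction. The members' median was then 0.011 to 0.068 and that of the TOP-listed members -0.44 to -0.26, and the median of the 45 other pathway genes was 0.006 to 0.0165, opposite in sign to -0.02. Without the filter 1999 genes were called, with 1 member higher and 3 lower and 2 pathway genes higher. Without the variance trend 2718 genes, 1 member higher and 2 lower and 1 pathway gene higher were called. Both stricter filters called 5 pathway genes lower. Quantile normalization called 21 members lower and 9 pathway genes lower, with medians of -0.024 for the members, -0.067 for the pathway genes and -0.47 for the TOP-listed members. Median centring called 28 members higher and 5 lower and 19 pathway genes higher, with medians of 0.32, 0.19 and -0.13, and 69.1% of all calls were then higher against 44.03% as deposited, while the median of all genes moved to 0.18. Reads scaled to each library's total called 6 pathway genes lower, with a median of -0.068. The cause of these changes was not tested.

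With a replicate block, 23 members were called higher and 22 lower, and 13 pathway genes higher and 10 lower, and all 24 calls held. Replicate numbers are shared in the labels, but no source pairs the samples. Deviations of same-numbered libraries correlated at 0.453 over 8473 genes and at 0.806 over the 67 members, which share these libraries. With 2 pairs and no source that ties the numbers to a shared culture or day, the block is not read as a pairing.

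Among uncalled members, quantile normalization reversed EIF1 (-0.053), EIF3A (-0.17), EIF3I (-0.024), EIF3IP1 (0.073), EIF3K (-0.022), EIF4EBP3 (0.43), EIF4H (-0.080) and EIF5 (-0.046). Median centring reversed EIF2AK1 (0.041), EIF3D (0.13), EIF3G (0.033), EIF3J (0.15), EIF4EBP3 (0.20), EIF4G1 (0.17) and EIF4G2 (0.16), and scaling to the total reversed EIF3A (-0.0059). Leaving out 1 library reversed 7 of them, with ranges of -1.51 to 0.52 for EEF1DP3, -0.91 to 0.046 for EIF3IP1, -0.41 to 0.39 for EIF4EBP3, -0.046 to 0.49 for EIF5AL1, -0.013 to 0.10 for EIF3A, -0.051 to 0.41 for EIF3CL and -0.12 to 0.034 for EIF4G1. Depth limits EEF1DP3, EIF3IP1, EIF4EBP3, EIF4E3 and EIF5A2, with at most 119 reads in a library. It also limits the fold of EEF1A2, which had 14 and 16 reads in the libraries labelled GNA13-deficient.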
